A study of Mus musculus with 23 samples.

Results

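Macrophages sorted from the tissue around a poly(ethylene glycol) (PEG) hydrogel 2 days after it was placed under the skin were compared with macrophages from the subcutaneous tissue of mice that had received no treatment. The libraries were taken by their labels, 3 at day 2 and 2 controls, together 5 of the 23 libraries of the series. All mice were wild type C57BL/6J, and all tissue, controls included, was digested for 30 min with the enzyme blend Liberase TM before sorting. The design note of the series gives a macrophage gate that is low for Ly6C and positive for Cx3cr1, and calls replicates biological. Neither pooling nor the number of animals is stated, so p-values measure the spread between libraries within the groups of the whole series. The other libraries were 6 of macrophages at days 14 and 28 after implantation and 12 of monocytes, which entered the fit to estimate the spread of each gene, and the 6 later macrophage libraries served for a further contrast.

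A PEG hydrogel is a water-swollen synthetic polymer, and the response to it runs from protein adsorption and acute inflammation through macrophage accumulation to a fibrous capsule. Macrophages of uninjured skin and fascia are largely tissue residents that take up debris, present antigen and secrete complement. Tissue injury brings in neutrophils and monocytes, and monocytes that become macrophages at a wound meet little oxygen, clotting proteins and dying cells.

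Values are counts per 1000000 counts of a library (CPM) after TMM scaling, given in the order of libraries A, B and C for day 2 and A and B for controls. Log2 fold changes are day 2 minus control with their standard error, and a gene was called at an adjusted p under 0.05 (edgeR's quasi-likelihood test, Benjamini-Hochberg over all 16260 genes tested). Where leaving out 1 library lost or gained a call, the adjusted p without it follows, and where it moved a count of members more than 1.5 times, the count without it follows. Where the libraries then left in a group are at 0, the log2 value rests on the prior count and is no bound. Totals were 9303153 to 25741009 counts in the day 2 libraries, against 10898529 and 26053997 in controls. Rank correlations were 0.947 to 0.962 between libraries of the same group and 0.855 to 0.887 between day 2 and control libraries. Levels fell with exon length in day 2 libraries and rose with it in controls (slopes of -0.146, -0.097 and -0.148 log2 units per doubling at day 2, against 0.196 and 0.067 in controls). Mitochondrially encoded genes held 2.01%, 4.35% and 1.86% of counts at day 2, against 1.25% and 0.75% in controls. The part of either in the results was not tested. Where a list is given with calls in 1 direction, it had no call in the other.

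Markers of the macrophage lineage were present in every library of both groups. The macrophage receptor Adgre1 stood at 549, 458 and 603 CPM at day 2, against 945 and 741 CPM in controls, and the Fc receptor Fcgr1 at 441, 371 and 661 CPM at day 2, against 279 and 291 CPM in controls. The lysosomal marker Cd68 stood at 3294, 2582 and 3722 CPM at day 2, against 1188 and 1671 CPM in controls. The rise of Cd68 came to 1.16 ± 0.33 log2 units (adjusted p = 0.019, and 0.24 leaving out control A, 0.059 leaving out day 2 A and 0.082 leaving out day 2 C). Csf1r, the receptor for macrophage colony-stimulating factor, stood at 714, 756 and 653 CPM at day 2, against 2921 and 1813 CPM in controls. For Csf1r the log2 fold change was -1.74 ± 0.43 (adjusted p = 0.0089, and 0.14 leaving out control A). The sorting gene Cx3cr1 stood at 25.6, 28.6 and 31.0 CPM at day 2, against 136 and 57.6 CPM in controls. Cx3cr1 fell by 1.77 ± 0.40 on the log2 scale (adjusted p = 0.0047, and 0.18 leaving out control A, with a log2 value of -1.09 leaving out control A). The Ly6C gene Ly6c2 stood at 64.9, 36.1 and 100.5 CPM at day 2, against 236 and 120.3 CPM in controls. Ly6c2 did not pass, with a log2 fold change of -1.41 ± 0.68 (adjusted p = 0.16). All 3 day 2 libraries lay below both controls for each of these sorting genes.

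Transcripts that mark neutrophils moved with the groups. The 18 tested members of a neutrophil list summed to 7672, 3815 and 5251 CPM at day 2, against 340.1 and 328 CPM in controls, and calls were 12 higher. Of these members, S100a8 (3157, 1460.5 and 2303 CPM) and S100a9 (2897, 1253 and 1697 CPM) made up most of the day 2 sums. Monocytes make both as well. The defining surface marker Ly6g stood at 20.6, 9.30 and 9.91 CPM at day 2, against 0 and 0 CPM in controls, and the granule protease gene Elane was at 0 in both controls. Fibroblast markers went the other way, with a sum of 59.6, 7.08 and 12.7 CPM at day 2, against 217 and 278 CPM in controls. T cell and NK markers summed to 41.1, 33.99 and 282 CPM at day 2, against 41.6 and 44.2 CPM in controls, so that day 2 C stood apart from the other 4. Red cell markers summed to 719, 278 and 64.3 CPM at day 2, against 10.8 and 169.7 CPM in controls, and dendritic cell markers to 344, 348 and 545 CPM at day 2, against 497 and 631 CPM in controls. In bulk libraries fewer cells of a type and less RNA per cell cannot be told apart, and the part of these cells in the results was not tested.

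**Figure D1:**
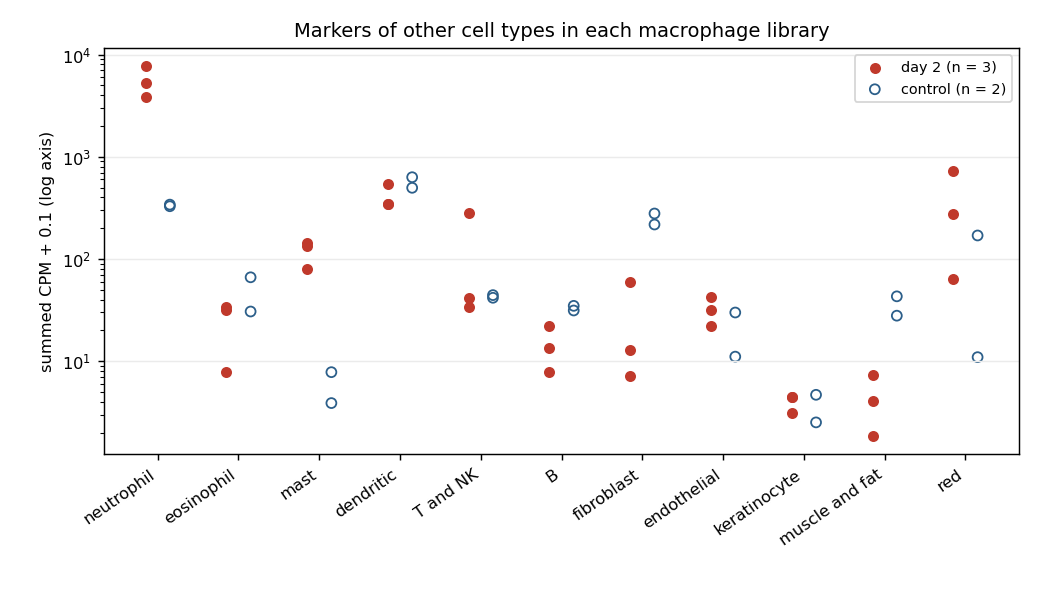
Summed CPM + 0.1 of marker lists of other cell types on a log axis, one point per library, day 2 (red, n = 3) left of controls (open blue, n = 2). The neutrophil sums lie at 7672, 3815 and 5251 CPM at day 2, against 340.1 and 328 CPM in controls, while fibroblast, muscle and fat sums lie below the controls. S100a8 and S100a9, which monocytes make as well, hold most of the neutrophil sums at day 2.

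Of the genes tested, 1643 rose at day 2 (10.1%), 1154 fell (7.1%) and 13463 did not pass, and 712 rises and 581 falls were over 4-fold. The libraries of the groups did not overlap for 54.1% of all genes tested. The median log2 fold change over all genes was -0.16, and 0.05 with the exon length trend removed. Rises made up 58.7% of calls, and 75.3% with that trend removed. The numbers higher and lower were 496 and 330 without control A, 933 and 748 without control B, 988 and 633 without day 2 A, and 1033 and 670 without day 2 C. Under all 13 alternatives tried, 436 of the rises (26.5%) and 230 of the falls (19.9%) were called in the same direction, and no gene was called in the opposite one. Median exon length was 2728 bases among rises, 5498 among falls and 3691 over all genes. The counts of list members given below stand against these shares of 10.1% and 7.1%. Statements below that the libraries of the groups do not overlap stand against the share of 54.1%.

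**Figure D2:**
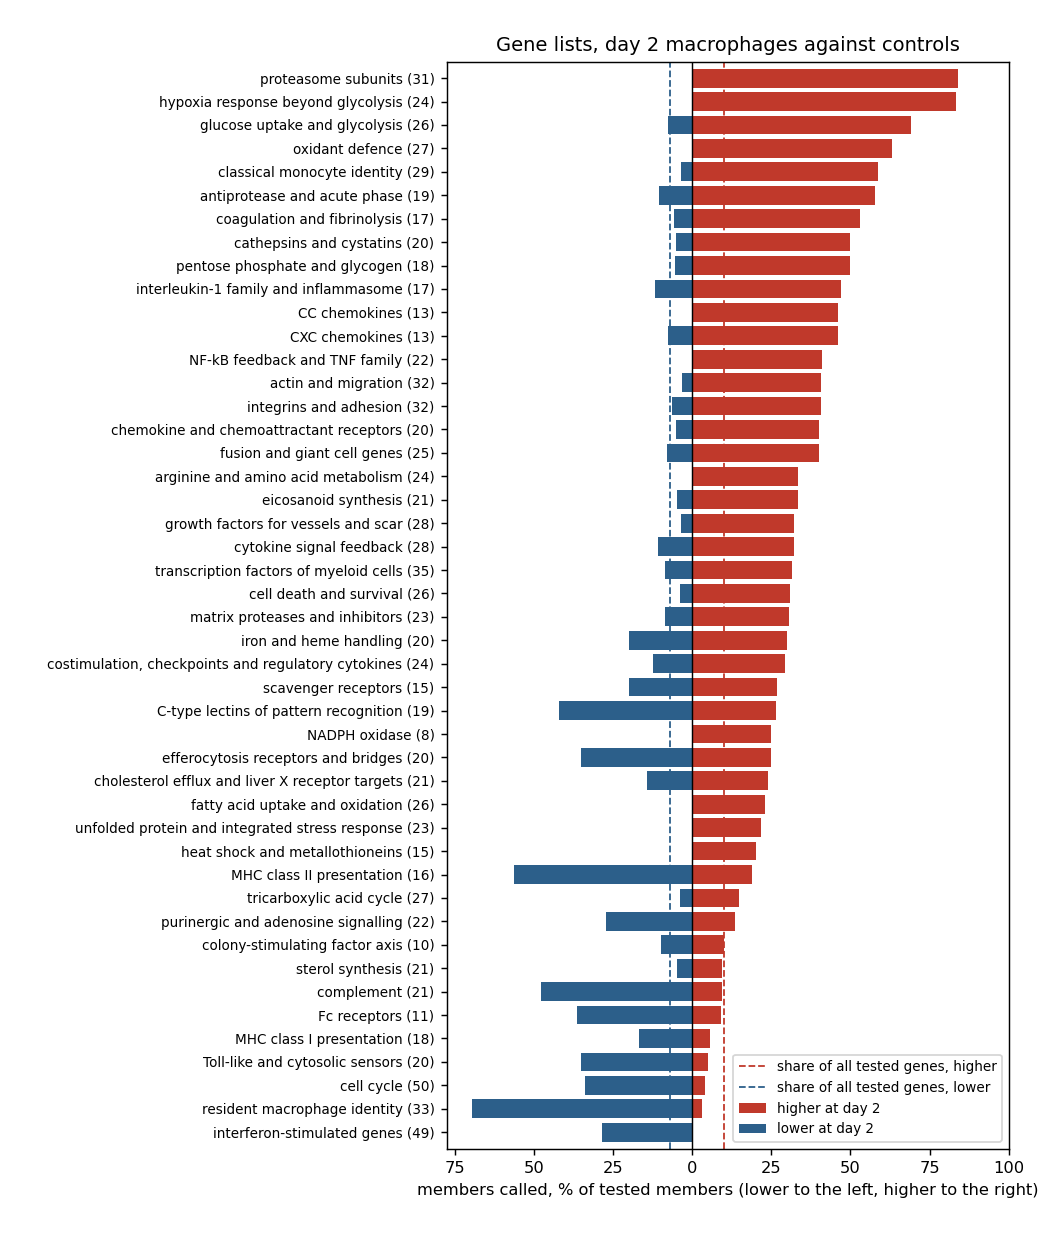
Members called higher (red, to the right) and lower (blue, to the left) in each gene list, as percent of its tested members, whose number stands in parentheses. Dashed lines mark the shares over all tested genes, 10.1% higher and 7.1% lower. The proteasome (26 of 31) and hypoxia (20 of 24) lists reach farthest to the right and the resident macrophage list (23 of 33) farthest to the left.

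Chemoattractants for neutrophils and monocytes rose. Of 13 CXC chemokines tested, calls were 6 higher and 1 lower, with a median log2 fold change of 4.41. Cxcl3, a ligand of the neutrophil receptor Cxcr2, stood at 1868, 604 and 984.97 CPM at day 2, against 1.57 and 2.64 CPM in controls. For Cxcl3 the log2 fold change was 9.07 ± 1.03 (adjusted p = 5.2e-06). Its neighbours on chromosome 5 moved with it. Cxcl1 stood at 620.1, 109 and 404 CPM at day 2, against 2.87 and 14.1 CPM in controls. Cxcl1 rose by 5.46 ± 0.94 on the log2 scale (adjusted p = 4.6e-04). Cxcl2 stood at 3290.5, 1282 and 2015 CPM at day 2, against 79.5 and 127 CPM in controls. The rise of Cxcl2 came to 4.41 ± 0.49 log2 units (adjusted p = 3.6e-06). Day 2 A was the highest and day 2 B the lowest library for all 3, and each day 2 value was above both controls. Ppbp, a platelet and myeloid chemokine of the same cluster, stood at 640.0, 239 and 530.2 CPM at day 2, against 1.89 and 4.74 CPM in controls. For Ppbp the log2 fold change was 7.12 ± 0.91 (adjusted p = 3.6e-05). Cxcl12, a homeostatic chemokine made mainly by stromal cells, stood at 0.900, 0.0823 and 0.725 CPM at day 2, against 27.8 and 24.8 CPM in controls. For Cxcl12 the log2 fold change was -5.57 ± 1.26 (adjusted p = 0.0046). Its fall went in the direction of the fibroblast markers above, and the part of these in it was not tested.

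The start sites of the 3 Cxcl genes, with that of the NF-kB inhibitor Nfkbia described below, are shown because these genes rose together and their promoters hold like motifs. The lines give the 250 bases before the start, from RefSeq on GRCm38.p6, with matches to a kappa B motif (GGG, then 2 bases of any kind, then TTTCC) on either strand in capitals.
Cxcl1 chr5:90890995-90891244 plus strand: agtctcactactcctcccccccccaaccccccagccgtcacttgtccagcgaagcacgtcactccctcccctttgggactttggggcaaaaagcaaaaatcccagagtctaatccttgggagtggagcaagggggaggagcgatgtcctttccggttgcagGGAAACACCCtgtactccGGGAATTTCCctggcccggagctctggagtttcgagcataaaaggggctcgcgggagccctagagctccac
Cxcl2 chr5:90903649-90903898 plus strand: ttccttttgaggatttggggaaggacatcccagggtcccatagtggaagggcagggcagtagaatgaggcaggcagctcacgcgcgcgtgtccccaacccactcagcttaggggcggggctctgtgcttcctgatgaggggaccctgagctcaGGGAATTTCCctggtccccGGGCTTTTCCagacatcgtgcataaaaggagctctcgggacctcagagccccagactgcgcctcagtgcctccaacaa
Cxcl3 chr5:90785851-90786100 plus strand: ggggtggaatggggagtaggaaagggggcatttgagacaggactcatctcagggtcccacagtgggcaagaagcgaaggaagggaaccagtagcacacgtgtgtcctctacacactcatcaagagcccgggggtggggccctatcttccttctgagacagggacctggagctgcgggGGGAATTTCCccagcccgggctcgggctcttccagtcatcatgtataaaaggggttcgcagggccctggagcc
Nfkbia chr12:55492648-55492897 minus strand: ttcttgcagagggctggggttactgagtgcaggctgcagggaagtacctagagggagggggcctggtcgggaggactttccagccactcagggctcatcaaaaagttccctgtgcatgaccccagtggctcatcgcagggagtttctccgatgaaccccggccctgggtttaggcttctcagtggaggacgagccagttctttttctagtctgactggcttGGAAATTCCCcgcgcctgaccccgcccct
Cxcl1 and Cxcl2 each hold 2 matches, and Cxcl3 and Nfkbia each hold 1. GGGAATTTCC stands in all 3 chemokine promoters. Of 32841 RefSeq promoter windows of this length, 1.41% hold the motif. Among tested genes with a window, 3 of 10 CXC chemokines, 1 of 7 CC chemokines and 4 of 17 genes of the NF-kB list hold it in any window, against 1.82% of 11044. The 3 CXC chemokines are those shown, no other CXC chemokine with a window holds it, and Nfkbia is among the 4. These counts therefore include promoters that were chosen for their matches. These are letter matches, and binding was not measured.

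CC chemokines, which draw monocytes and other leukocytes, followed with 6 higher (1 leaving out control A) of 13. Ccl9 stood at 4206, 4912 and 5164 CPM at day 2, against 1079.6 and 1298 CPM in controls. Ccl9 rose by 2.002 ± 0.28 on the log2 scale (adjusted p = 5.2e-05). Each day 2 library lay above both controls for it. The monocyte attractant Ccl2 stood at 944, 1090.0 and 1454 CPM at day 2, against 188 and 225 CPM in controls. The rise of Ccl2 came to 2.49 ± 0.56 log2 units (adjusted p = 0.0042, and 0.077 leaving out control A). Ccl6 stood at 15939.9, 24025 and 16901 CPM at day 2, against 4377 and 6544 CPM in controls. For Ccl6 the log2 fold change was 1.80 ± 0.35 (adjusted p = 0.0014, and 0.066 leaving out control A). Ccl4, which draws monocytes, stood at 1155, 558 and 720.2 CPM at day 2, against 48.8 and 75.1 CPM in controls. Ccl4 rose by 3.71 ± 0.76 on the log2 scale (adjusted p = 0.0021, and 0.058 leaving out control A). Ccl3 and Ccl4 share sequence with close relatives, and how reads that match both were counted is not stated in the sources used here. Among 20 chemoattractant receptors, calls were 8 higher (3 leaving out control A) and 1 lower. Ackr3, a scavenging receptor for Cxcl12, stood at 155, 128 and 127 CPM at day 2, against 3.07 and 0.569 CPM in controls. The rise of Ackr3 came to 6.30 ± 1.10 log2 units (adjusted p = 5.6e-04). The formyl peptide receptor Fpr1, which senses bacterial and mitochondrial peptides, stood at 288, 159 and 201 CPM at day 2, against 13.7 and 16.7 CPM in controls. For Fpr1 the log2 fold change was 3.83 ± 0.69 (adjusted p = 7.6e-04). Cxcr4, the signalling receptor for Cxcl12, stood at 50.3, 23.3 and 32.1 CPM at day 2, against 10.5 and 3.39 CPM in controls. Cxcr4 rose by 2.36 ± 0.46 on the log2 scale (adjusted p = 0.0015). Cxcr3, a receptor for interferon-induced chemokines, stood at 1.66, 0.0412 and 1.09 CPM at day 2, against 25.7 and 51.7 CPM in controls. Cxcr3 fell by 5.41 ± 0.84 on the log2 scale (adjusted p = 1.8e-04). The neutrophil receptor Cxcr2 stood at 51.6, 52.4 and 62.6 CPM at day 2, against 0 and 0.929 CPM in controls. The rise of Cxcr2 came to 6.71 ± 1.82 log2 units (adjusted p = 0.015, and 0.16 leaving out control A, with a log2 value of 13.28 leaving out control B). The neutrophil marker sums given above moved with it.

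The interleukin-1 family rose on both its agonist and its inhibitor side. Of 17 members, calls were 8 higher and 2 lower (0 leaving out control A, 1 leaving out control B, 1 leaving out day 2 B and 0 leaving out day 2 C). The agonist Il1b stood at 4819.6, 1741 and 2527 CPM at day 2, against 25.3 and 29.2 CPM in controls. For Il1b the log2 fold change was 6.79 ± 0.67 (adjusted p = 9.3e-07). Il1a stood at 232, 83.8 and 136 CPM at day 2, against 0.849 and 0.300 CPM in controls. Il1a rose by 8.13 ± 1.33 on the log2 scale (adjusted p = 2.9e-04). Il1f9, which encodes interleukin-36 gamma, stood at 103, 73.9 and 67.2 CPM at day 2, against 0 and 0.330 CPM in controls. The rise of Il1f9 came to 8.60 ± 1.29 log2 units (adjusted p = 1.2e-04, with a log2 value of 13.83 leaving out control B). The receptor antagonist Il1rn stood at 775, 268 and 779 CPM at day 2, against 22.8 and 15.2 CPM in controls. For Il1rn the log2 fold change was 4.9997 ± 0.46 (adjusted p = 3.7e-07). The decoy receptor Il1r2 stood at 309, 184 and 252 CPM at day 2, against 4.77 and 3.63 CPM in controls. Il1r2 rose by 5.89 ± 0.68 on the log2 scale (adjusted p = 6.5e-06). All 5 were highest in day 2 A except Il1rn, for which day 2 A and C were close and B was lower. Nlrp3, the sensor of the inflammasome that releases interleukin-1, stood at 56.5, 20.8 and 25.4 CPM at day 2, against 4.25 and 1.98 CPM in controls. The rise of Nlrp3 came to 3.48 ± 0.61 log2 units (adjusted p = 5.9e-04). Gsdmd, whose product forms the exit pore, stood at 99.5, 118 and 87.1 CPM at day 2, against 217 and 154 CPM in controls. For Gsdmd the log2 fold change was -0.87 ± 0.24 (adjusted p = 0.017, and 0.23 leaving out control A and 0.052 leaving out day 2 C).

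Feedback inhibitors of NF-kB and ligands of the TNF family rose, 9 higher of 22. Nfkbia stood at 2622, 1711 and 1873 CPM at day 2, against 186 and 215 CPM in controls. For Nfkbia the log2 fold change was 3.36 ± 0.62 (adjusted p = 8.4e-04). The ubiquitin-editing inhibitor Tnfaip3 stood at 178, 60.7 and 86.7 CPM at day 2, against 17.2 and 14.6 CPM in controls. Tnfaip3 rose by 2.77 ± 0.49 on the log2 scale (adjusted p = 5.5e-04). Tnfsf9, the ligand of the costimulatory receptor 4-1BB, stood at 176, 132 and 141 CPM at day 2, against 24.8 and 28.5 CPM in controls. The rise of Tnfsf9 came to 2.49 ± 0.40 log2 units (adjusted p = 2.6e-04). Tnf itself stood at 106, 69.0 and 55.7 CPM at day 2, against 14.4 and 25.9 CPM in controls. For Tnf the log2 fold change was 1.93 ± 0.53 (adjusted p = 0.017, and 0.23 leaving out control A and 0.078 leaving out day 2 A). Of 20 Toll-like and cytosolic sensors, calls were 1 higher and 7 lower (0 leaving out control A). Cd14, the co-receptor for lipopolysaccharide, stood at 10216, 5978 and 6694 CPM at day 2, against 383 and 501 CPM in controls. Cd14 rose by 4.11 ± 0.31 on the log2 scale (adjusted p = 4.6e-08). The RNA sensor Tlr7 stood at 32.4, 20.7 and 36.2 CPM at day 2, against 89.4 and 68.1 CPM in controls. Tlr7 fell by 1.40 ± 0.35 on the log2 scale (adjusted p = 0.0084, and 0.094 leaving out control A). Tlr8 stood at 16.3, 13.1 and 12.2 CPM at day 2, against 86.9 and 35.7 CPM in controls. For Tlr8 the log2 fold change was -2.14 ± 0.46 (adjusted p = 0.0034, and 0.14 leaving out control A).

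The pattern-recognition lectins split, with 5 higher and 8 lower of 19. The risers included activating receptors. Clec4d, a partner of Clec4e that binds mycobacterial glycolipid, stood at 1046, 485 and 761 CPM at day 2, against 8.88 and 15.9 CPM in controls. The rise of Clec4d came to 5.94 ± 0.54 log2 units (adjusted p = 3.7e-07). Clec4n, which encodes dectin-2, stood at 788, 409.5 and 690.4 CPM at day 2, against 70.5 and 85.2 CPM in controls. For Clec4n the log2 fold change was 3.01 ± 0.41 (adjusted p = 4.6e-05). Clec7a, which encodes the beta-glucan receptor dectin-1, stood at 562, 170.0 and 431 CPM at day 2, against 86.2 and 94.3 CPM in controls. Clec7a rose by 2.10 ± 0.38 on the log2 scale (adjusted p = 7.6e-04). The fallers included endocytic lectins. The mannose receptor Mrc1 stood at 214, 302 and 225 CPM at day 2, against 1601 and 1014 CPM in controls. Mrc1 fell by 2.403 ± 0.49 on the log2 scale (adjusted p = 0.0019). The collectin Colec12 stood at 3.60, 5.06 and 3.87 CPM at day 2, against 54.4 and 57.5 CPM in controls. For Colec12 the log2 fold change was -3.74 ± 0.80 (adjusted p = 0.0033).

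**Figure D3:**
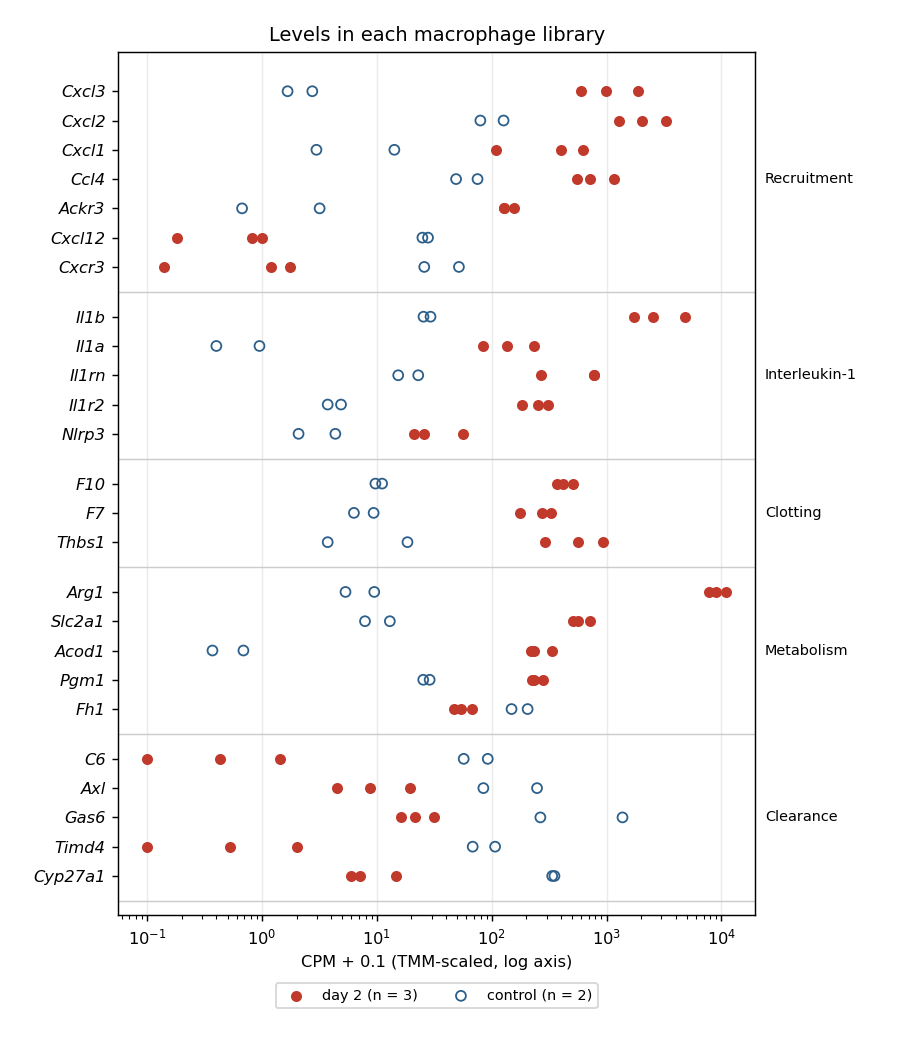
CPM + 0.1 on a log axis for 25 genes in each macrophage library, day 2 filled red (n = 3) and control open blue (n = 2), grouped by role. Cxcl12, Cxcr3, Fh1 and the 5 genes labelled clearance lie lower at day 2, and the other 17 lie higher, with no overlap between the groups' libraries for any of the 25. All 25 are called genes, and 54.1% of all genes tested had no overlap. The clearance label covers fallers only, among them the complement gene C6 and the lipid gene Cyp27a1. The list of receptors and bridges for apoptotic cells had 5 higher and 7 lower of 20.

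Clotting and fibrinolysis genes rose, 9 higher and 1 lower (0 leaving out control A, 0 leaving out control B, 0 leaving out day 2 A, 0 leaving out day 2 B and 0 leaving out day 2 C) of 17, with a median log2 fold change of 2.76. Coagulation factor F10 stood at 514, 368 and 414 CPM at day 2, against 9.60 and 10.999 CPM in controls. The rise of F10 came to 5.39 ± 0.33 log2 units (adjusted p = 5.0e-09). F7, whose product binds tissue factor to activate it, stood at 329, 177.5 and 275 CPM at day 2, against 6.205 and 9.26 CPM in controls. For F7 the log2 fold change was 5.07 ± 0.65 (adjusted p = 2.0e-05). Procr, the endothelial protein C receptor, stood at 49.2, 31.7 and 27.3 CPM at day 2, against 1.24 and 1.74 CPM in controls. Procr rose by 4.58 ± 0.74 on the log2 scale (adjusted p = 2.8e-04). On the fibrinolytic side, Anxa2 and S100a10 encode the 2 parts of a plasminogen receptor. Anxa2 stood at 6184, 5599 and 6554 CPM at day 2, against 749 and 887 CPM in controls. The rise of Anxa2 came to 2.90 ± 0.30 log2 units (adjusted p = 1.3e-06). S100a10 stood at 2272, 1689.6 and 1864 CPM at day 2, against 241 and 331 CPM in controls. For S100a10 the log2 fold change was 2.76 ± 0.47 (adjusted p = 4.6e-04). F13a1, a fibrin-crosslinking transglutaminase listed below among genes of classical monocytes, stood at 989, 1247 and 878 CPM at day 2, against 3877 and 2649 CPM in controls. F13a1 fell by 1.65 ± 0.53 on the log2 scale (adjusted p = 0.037, and 0.24 leaving out control A, 0.064 leaving out control B, 0.091 leaving out day 2 A, 0.057 leaving out day 2 B and 0.10 leaving out day 2 C).

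Growth factors and matrix proteases of wound repair that were called were mainly higher. Most members of both lists did not pass (18 of 28 and 14 of 23). Of 28 growth factors for vessels and scar, calls were 9 higher (5 leaving out control A and 5 leaving out control B) and 1 lower (0 leaving out control A, 0 leaving out control B, 0 leaving out day 2 A and 0 leaving out day 2 B). Thrombospondin Thbs1, a matrix protein that activates transforming growth factor beta, stood at 926, 293 and 568 CPM at day 2, against 18.4 and 3.63 CPM in controls. Thbs1 rose by 5.77 ± 0.94 on the log2 scale (adjusted p = 2.9e-04). Inhba, the activin A subunit, stood at 87.6, 32.1 and 40.8 CPM at day 2, against 0 and 0.420 CPM in controls. The rise of Inhba came to 7.67 ± 1.30 log2 units (adjusted p = 4.1e-04, with a log2 value of 13.23 leaving out control B). The epidermal growth factor family member Areg had 32.8, 9.38 and 8.70 CPM at day 2, against 1 count over both controls (ratio 899 with a counting interval of 161 to 35556, counting error only). Among 23 proteases and inhibitors, calls were 7 higher and 2 lower (0 leaving out control A, 1 leaving out day 2 A and 1 leaving out day 2 B). Mmp19 stood at 150.9, 105 and 195 CPM at day 2, against 6.73 and 8.36 CPM in controls. For Mmp19 the log2 fold change was 4.31 ± 0.48 (adjusted p = 3.6e-06). The macrophage elastase Mmp12 stood at 869, 515 and 654 CPM at day 2, against 36.6 and 3.57 CPM in controls. Mmp12 rose by 5.09 ± 1.10 on the log2 scale (adjusted p = 0.0033). The sheddase Adam8 stood at 665, 393 and 607 CPM at day 2, against 55.5 and 47.6 CPM in controls. The rise of Adam8 came to 3.43 ± 0.62 log2 units (adjusted p = 7.8e-04). The neutrophil collagenase Mmp8 stood at 97.3, 91.6 and 109 CPM at day 2, against 1.24 and 1.47 CPM in controls. For Mmp8 the log2 fold change was 6.18 ± 0.97 (adjusted p = 2.0e-04). It moved with the neutrophil marker sums, which hold it. Cathepsins and cystatins gave 10 higher (4 leaving out control A and 5 leaving out control B) and 1 lower (0 leaving out control B and 0 leaving out day 2 A) of 20. Ctsl stood at 5717, 3198 and 5462 CPM at day 2, against 840.2 and 1166 CPM in controls. Ctsl rose by 2.26 ± 0.36 on the log2 scale (adjusted p = 2.3e-04). Its inhibitor Cstb stood at 2719, 1190.5 and 2286 CPM at day 2, against 227 and 283 CPM in controls. The rise of Cstb came to 3.02 ± 0.55 log2 units (adjusted p = 8.1e-04).

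Transcripts of consecutive steps of prostaglandin E2 synthesis rose, and prostaglandins were not measured. Ptgs2, the inducible cyclooxygenase, stood at 304, 123 and 180.2 CPM at day 2, against 1.502 and 2.55 CPM in controls. For Ptgs2 the log2 fold change was 6.62 ± 0.80 (adjusted p = 1.1e-05). Ptges, which makes prostaglandin E2, stood at 184, 74.3 and 83.2 CPM at day 2, against 0.718 and 0.330 CPM in controls. Ptges rose by 7.83 ± 1.08 on the log2 scale (adjusted p = 4.7e-05). Hpgd, which inactivates prostaglandin E2, stood at 3.98, 1.56 and 6.16 CPM at day 2, against 60.2 and 89.1 CPM in controls. For Hpgd the log2 fold change was -4.30 ± 0.57 (adjusted p = 3.4e-05). All 3 day 2 libraries lay above both controls for the first 2 genes and below them for Hpgd. Of the 21 genes of this list, calls were 7 higher (3 leaving out control A) and 1 lower.

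Genes of arginine and cystine metabolism rose. Arg1, which cleaves arginine to ornithine and urea, stood at 11036, 7742 and 8900.3 CPM at day 2, against 5.23 and 9.38 CPM in controls. The rise of Arg1 came to 10.29 ± 0.92 log2 units (adjusted p = 3.2e-07). The mitochondrial isoform Arg2 stood at 135, 49.1 and 51.6 CPM at day 2, against 0.523 and 0.689 CPM in controls. For Arg2 the log2 fold change was 6.98 ± 0.74 (adjusted p = 2.0e-06). Nos2, which makes nitric oxide from the same substrate, had 108, 70.0 and 65.6 CPM at day 2 and 0 counts in controls (at least 1318-fold higher, counting error only). The arginine transporter Slc7a2 stood at 142, 62.9 and 73.8 CPM at day 2, against 4.11 and 0.839 CPM in controls. Slc7a2 rose by 5.27 ± 1.15 on the log2 scale (adjusted p = 0.0035, and 0.053 leaving out control B). Ass1, which resynthesizes arginine from citrulline, stood at 3.27, 1.40 and 2.90 CPM at day 2, against 0.196 and 0.0899 CPM in controls. The rise of Ass1 came to 4.20 ± 0.69 log2 units (adjusted p = 3.0e-04). Slc7a11, the cystine importer that feeds glutathione, stood at 153, 81.5 and 86.5 CPM at day 2, against 0.196 and 0.330 CPM in controls. For Slc7a11 the log2 fold change was 8.56 ± 0.64 (adjusted p = 4.6e-08). Of the 24 genes of the list, calls were 8 higher.

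Most genes of glycolysis and of the wider hypoxia response rose. Of 26 glycolysis genes, calls were 18 higher and 2 lower (1 leaving out control B, 1 leaving out day 2 B and 1 leaving out day 2 C). Of 24 other hypoxia genes, calls were 20 higher, with a median log2 fold change of 4.13. The glucose transporter Slc2a1 stood at 721, 506 and 564 CPM at day 2, against 7.77 and 12.9 CPM in controls. Slc2a1 rose by 5.85 ± 0.47 on the log2 scale (adjusted p = 1.3e-07). The lactate exporter Slc16a3 stood at 464, 415 and 403 CPM at day 2, against 21.6 and 12.6 CPM in controls. The rise of Slc16a3 came to 4.65 ± 0.57 log2 units (adjusted p = 1.2e-05). Lactate dehydrogenase Ldha stood at 5427, 4036 and 4902 CPM at day 2, against 510.3 and 570.2 CPM in controls. For Ldha the log2 fold change was 3.15 ± 0.29 (adjusted p = 3.4e-07). Egln3, an oxygen-sensing prolyl hydroxylase that marks hypoxia-inducible factor for decay, stood at 456, 287 and 335 CPM at day 2, against 0 and 0.420 CPM in controls. Egln3 rose by 10.41 ± 1.18 on the log2 scale (adjusted p = 4.8e-06, with a log2 value of 15.97 leaving out control B). The mitophagy receptor Bnip3 stood at 981, 659 and 853 CPM at day 2, against 23.3 and 24.1 CPM in controls. The rise of Bnip3 came to 5.13 ± 0.48 log2 units (adjusted p = 4.7e-07). The hypoxia-induced Ankrd37 stood at 156, 155 and 159.7 CPM at day 2, against 4.18 and 3.90 CPM in controls. For Ankrd37 the log2 fold change was 5.28 ± 0.50 (adjusted p = 6.1e-07). For these 6 genes each day 2 library lay above both controls. Mpi, which takes fructose 6-phosphate towards mannose, stood at 21.97, 44.7 and 30.7 CPM at day 2, against 114 and 134 CPM in controls. Mpi fell by 1.93 ± 0.31 on the log2 scale (adjusted p = 2.1e-04).

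The 250 bases before the start of 3 of these genes, again from RefSeq on GRCm38.p6, are shown with ACGTG, the core of the hypoxia response element, in capitals on either strand (CACGT on the other strand, and CACGTG where both overlap).
Slc2a1 chr4:119108495-119108744 plus strand: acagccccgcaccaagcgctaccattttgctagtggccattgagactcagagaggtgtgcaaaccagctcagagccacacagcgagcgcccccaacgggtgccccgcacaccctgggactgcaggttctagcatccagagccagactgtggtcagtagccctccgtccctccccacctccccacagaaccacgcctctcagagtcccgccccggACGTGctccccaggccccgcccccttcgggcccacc
Ldha chr7:46845554-46845803 plus strand: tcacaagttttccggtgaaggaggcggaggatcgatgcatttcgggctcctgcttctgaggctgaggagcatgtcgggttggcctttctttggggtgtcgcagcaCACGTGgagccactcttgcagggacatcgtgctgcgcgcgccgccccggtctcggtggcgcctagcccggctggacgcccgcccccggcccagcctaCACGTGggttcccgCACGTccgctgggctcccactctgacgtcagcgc
Bnip3 chr7:138909507-138909756 minus strand: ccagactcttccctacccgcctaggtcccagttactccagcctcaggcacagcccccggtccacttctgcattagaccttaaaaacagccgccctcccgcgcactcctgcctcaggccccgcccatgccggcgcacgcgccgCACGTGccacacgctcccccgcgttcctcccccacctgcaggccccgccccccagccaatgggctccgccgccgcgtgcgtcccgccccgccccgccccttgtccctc
Slc2a1 and Bnip3 each have 1 capital stretch and Ldha has 3. The core stands in 16.6% of all promoter windows. Among tested genes with a window, 13 of 17 hypoxia genes and 12 of 25 glycolysis genes hold it in any window, against 24.2% of 11044. The 3 genes shown are counted among these. The Ldha window is the first of 2 in RefSeq, and the second holds no match. A match describes letters, and binding was not measured.

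Glycogen genes rose beside glycolysis. Of 18 genes of glycogen and the pentose phosphate pathway, calls were 9 higher (4 leaving out control B) and 1 lower (0 leaving out control A). Pgm1, which links glucose 6-phosphate to glycogen, stood at 278, 234 and 224 CPM at day 2, against 25.2 and 28.7 CPM in controls. Pgm1 rose by 3.18 ± 0.41 on the log2 scale (adjusted p = 2.4e-05). Ugp2, which makes the glycogen precursor, stood at 199, 204.3 and 220.1 CPM at day 2, against 53.4 and 56.3 CPM in controls. The rise of Ugp2 came to 1.92 ± 0.36 log2 units (adjusted p = 9.7e-04). Pygl, which breaks glycogen down, stood at 229.8, 197 and 214 CPM at day 2, against 35.01 and 31.0 CPM in controls. For Pygl the log2 fold change was 2.69 ± 0.40 (adjusted p = 1.1e-04). Of 27 genes of the tricarboxylic acid cycle, calls were 4 higher (1 leaving out control A, 2 leaving out day 2 A and 2 leaving out day 2 C) and 1 lower. Acod1, which diverts the cycle to itaconate, stood at 337, 218 and 233 CPM at day 2, against 0.588 and 0.270 CPM in controls. Acod1 rose by 9.35 ± 1.16 on the log2 scale (adjusted p = 1.5e-05). Fh1, which encodes fumarase, stood at 46.5, 53.6 and 66.7 CPM at day 2, against 149 and 205.1 CPM in controls. For Fh1 the log2 fold change was -1.67 ± 0.32 (adjusted p = 0.0012). The median log2 fold change of the list was 0.27.

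Oxidant defence rose broadly, 17 higher (8 leaving out control A) of 27. The peroxiredoxin Prdx6 stood at 1742, 943 and 1462 CPM at day 2, against 53.3 and 74.7 CPM in controls. The rise of Prdx6 came to 4.43 ± 0.42 log2 units (adjusted p = 5.1e-07). Prdx5 stood at 2427, 1507 and 1614 CPM at day 2, against 143 and 189 CPM in controls. For Prdx5 the log2 fold change was 3.48 ± 0.47 (adjusted p = 3.8e-05). Glutathione peroxidase Gpx1 stood at 16075, 13942 and 13704 CPM at day 2, against 1728 and 2194 CPM in controls. Gpx1 rose by 2.89 ± 0.41 on the log2 scale (adjusted p = 6.7e-05). Mitochondrial superoxide dismutase Sod2 stood at 1032, 566 and 619.6 CPM at day 2, against 49.6 and 77.5 CPM in controls. The rise of Sod2 came to 3.54 ± 0.55 log2 units (adjusted p = 1.9e-04). Cyba, a membrane subunit of the oxidase that makes superoxide, stood at 4799, 3268 and 3725 CPM at day 2, against 680.2 and 951 CPM in controls. For Cyba the log2 fold change was 2.27 ± 0.45 (adjusted p = 0.0016). It comes from a separate list of the NADPH oxidase, with 2 higher of 8. The metallothionein Mt2, which binds zinc and copper, stood at 289, 135 and 122 CPM at day 2, against 3.79 and 5.84 CPM in controls. Mt2 rose by 5.23 ± 0.91 on the log2 scale (adjusted p = 5.0e-04). Its relative Mt1 stood at 1839, 842 and 1013 CPM at day 2, against 110.0 and 184 CPM in controls. The rise of Mt1 came to 3.07 ± 0.57 log2 units (adjusted p = 9.3e-04). Mt1 and Mt2 come from a separate list of heat shock genes and metallothioneins, with 3 higher of 15 with all libraries in. Proteasome subunits gave 26 higher (7 leaving out control A) of 31, with a median log2 fold change of 1.06, and 1.21 with the length trend removed. The catalytic subunit Psmb5 stood at 147, 95.8 and 137 CPM at day 2, against 25.9 and 43.5 CPM in controls. For Psmb5 the log2 fold change was 1.87 ± 0.33 (adjusted p = 6.7e-04). Psma6 stood at 660.4, 557 and 705 CPM at day 2, against 126 and 167 CPM in controls. Psma6 rose by 2.13 ± 0.32 on the log2 scale (adjusted p = 1.3e-04). The subunit genes have a median exon length of 2808 bases, against 3691 over all genes.

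Antiprotease, acute-phase and classical monocyte genes rose. Of 19 antiprotease and acute-phase genes, calls were 11 higher and 2 lower (1 leaving out control B, 1 leaving out day 2 B and 1 leaving out day 2 C), with a median log2 fold change of 6.73. The acute-phase protein Saa3 stood at 5724, 2464 and 720.4 CPM at day 2, against 4.70 and 2.64 CPM in controls. The rise of Saa3 came to 9.68 ± 1.40 log2 units (adjusted p = 8.1e-05). Wfdc21, which shares the whey acidic protein fold of antiproteases, stood at 229, 99.7 and 99.2 CPM at day 2, against 0.327 and 0.0899 CPM in controls. For Wfdc21 the log2 fold change was 9.60 ± 1.57 (adjusted p = 2.8e-04). Among 29 genes of classical monocyte identity, calls were 17 higher and 1 lower (0 leaving out control A, 0 leaving out control B, 0 leaving out day 2 A, 0 leaving out day 2 B and 0 leaving out day 2 C). The lower one was F13a1. Trem1, which amplifies inflammatory signals, stood at 446, 249 and 324 CPM at day 2, against 0.131 and 0.839 CPM in controls. Trem1 rose by 9.27 ± 0.93 on the log2 scale (adjusted p = 1.1e-06). The membrane protein Mcemp1 stood at 329, 187 and 226 CPM at day 2, against 3.92 and 4.23 CPM in controls. The rise of Mcemp1 came to 5.92 ± 0.58 log2 units (adjusted p = 9.3e-07). Ccr2, the receptor by which monocytes leave the marrow, stood at 499, 518 and 679 CPM at day 2, against 1441 and 835 CPM in controls. Ccr2 did not pass, with a log2 fold change of -1.01 ± 0.43 (adjusted p = 0.11). Neutrophils also make several products of these lists. The neutrophil marker sums given above, which hold Trem1, moved with them.

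Cell division genes fell. Of 50 cell cycle genes, calls were 2 higher (0 leaving out control A, 0 leaving out control B, 0 leaving out day 2 A, 1 leaving out day 2 B and 0 leaving out day 2 C) and 17 lower (8 leaving out control A, 6 leaving out control B, 8 leaving out day 2 A, 10 leaving out day 2 B and 10 leaving out day 2 C), with a median log2 fold change of -2.30. Bub1b, a checkpoint kinase of the mitotic spindle, stood at 2.65, 0.576 and 0.966 CPM at day 2, against 20.1 and 11.8 CPM in controls. Bub1b fell by 3.49 ± 0.65 on the log2 scale (adjusted p = 9.5e-04). Kif23, a motor of cytokinesis, stood at 1.28, 1.69 and 0.846 CPM at day 2, against 24.5 and 28.3 CPM in controls. For Kif23 the log2 fold change was -4.34 ± 0.92 (adjusted p = 0.0028). Pcna, the sliding clamp of DNA replication, stood at 73.0, 60.7 and 73.1 CPM at day 2, against 34.03 and 52.8 CPM in controls. Pcna did not pass, with a log2 fold change of 0.67 ± 0.31 (adjusted p = 0.14). Each day 2 library lay below both controls for Bub1b and Kif23 and above both for Pcna.

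Genes of survival and the cytoskeleton were called mainly higher, and genes of extracellular nucleotides in both directions. Cdkn1a, the cell cycle inhibitor p21, stood at 2506, 1379.7 and 1634 CPM at day 2, against 136 and 171 CPM in controls. For Cdkn1a the log2 fold change was 3.58 ± 0.36 (adjusted p = 1.3e-06). The list of cell death and survival had 8 higher (4 leaving out control A, 5 leaving out control B and 5 leaving out day 2 A) and 1 lower (0 leaving out control A, 2 leaving out control B and 0 leaving out day 2 B) of 26. The intermediate filament Vim stood at 2204, 2161 and 2174 CPM at day 2, against 388 and 401 CPM in controls. Vim rose by 2.47 ± 0.29 on the log2 scale (adjusted p = 6.3e-06). The actin-capping protein Capg stood at 3166, 2645 and 3079 CPM at day 2, against 539 and 639.9 CPM in controls. The rise of Capg came to 2.33 ± 0.30 log2 units (adjusted p = 2.1e-05). The membrane linker Ezr stood at 277, 342 and 303 CPM at day 2, against 58.1 and 40.998 CPM in controls. For Ezr the log2 fold change was 2.63 ± 0.38 (adjusted p = 8.3e-05). Actin and migration genes gave 13 higher (8 leaving out control A) and 1 lower (0 leaving out control A, 0 leaving out control B, 0 leaving out day 2 A and 0 leaving out day 2 B) of 32. Nt5e, which encodes CD73 and makes adenosine, stood at 103, 63.6 and 99.4 CPM at day 2, against 0.0653 and 0.180 CPM in controls. Nt5e rose by 9.27 ± 1.24 on the log2 scale (adjusted p = 3.5e-05). The ATP receptor P2ry2 stood at 23.1, 29.3 and 26.6 CPM at day 2, against 0.131 and 0.659 CPM in controls. The rise of P2ry2 came to 5.90 ± 0.85 log2 units (adjusted p = 8.1e-05). The ADP receptor P2ry12 stood at 13.1, 22.4 and 14.01 CPM at day 2, against 85.6 and 96.98 CPM in controls. P2ry12 fell by 2.47 ± 0.48 on the log2 scale (adjusted p = 0.0013). P2ry13, another ADP receptor, stood at 6.203, 6.83 and 15.7 CPM at day 2, against 54.4 and 41.2 CPM in controls. For P2ry13 the log2 fold change was -2.33 ± 0.49 (adjusted p = 0.0028). Purinergic genes as a list gave 3 higher and 6 lower (2 leaving out control A) of 22.

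Among 35 transcription factors of myeloid cells, calls were 11 higher (7 leaving out control A) and 3 lower (1 leaving out control B). Bhlhe40, a repressor induced by stress and cytokines, stood at 286, 298 and 339.7 CPM at day 2, against 19.5 and 8.60 CPM in controls. For Bhlhe40 the log2 fold change was 4.46 ± 0.43 (adjusted p = 7.5e-07). Id2, an inhibitor of basic helix-loop-helix factors, stood at 1011, 683 and 1032 CPM at day 2, against 41.7 and 44.8 CPM in controls. Id2 rose by 4.39 ± 0.39 on the log2 scale (adjusted p = 3.2e-07). Cebpb, a driver of acute-phase and myeloid genes, stood at 76.9, 54.5 and 48.2 CPM at day 2, against 8.10 and 5.72 CPM in controls. The rise of Cebpb came to 3.12 ± 0.59 log2 units (adjusted p = 0.001). Klf4 stood at 249.9, 174 and 139 CPM at day 2, against 42.8 and 34.1 CPM in controls. For Klf4 the log2 fold change was 2.29 ± 0.42 (adjusted p = 8.9e-04). Runx3 stood at 39.7, 15.1 and 23.9 CPM at day 2, against 2.22 and 2.82 CPM in controls. Runx3 rose by 3.37 ± 0.60 on the log2 scale (adjusted p = 6.8e-04). Irf4, which is linked to alternative activation and to dendritic cells, stood at 0.852, 3.29 and 1.81 CPM at day 2, against 21.7 and 22.4 CPM in controls. Irf4 fell by 3.46 ± 0.53 on the log2 scale (adjusted p = 1.5e-04). For each of these 6 factors the day 2 libraries lay wholly on one side of the controls.

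Genes of resident macrophages fell, among them some of those by which they clear dying cells and tag debris. Of 33 genes of resident macrophage identity, calls were 1 higher (0 leaving out control A and 0 leaving out day 2 A) and 23 lower. Of 21 complement genes, calls were 2 higher (0 leaving out control A, 1 leaving out control B, 1 leaving out day 2 A and 1 leaving out day 2 C) and 10 lower (6 leaving out control B). The terminal component C6 stood at 0.331, 0 and 1.33 CPM at day 2, against 56.9 and 92.2 CPM in controls. For C6 the log2 fold change was -7.36 ± 1.19 (adjusted p = 3.7e-04). The receptor Vsig4 stood at 1.04, 0.123 and 0.242 CPM at day 2, against 9.99 and 22.1 CPM in controls. Vsig4 fell by 5.04 ± 0.98 on the log2 scale (adjusted p = 0.003). C1qa stood at 608, 1169.8 and 764 CPM at day 2, against 2122 and 2614 CPM in controls. For C1qa the log2 fold change was -1.48 ± 0.33 (adjusted p = 0.0044). Of 20 receptors and bridges for apoptotic cells, calls were 5 higher (3 leaving out control A and 2 leaving out control B) and 7 lower. The receptor tyrosine kinase Axl stood at 8.57, 4.40 and 19.3 CPM at day 2, against 248 and 84.4 CPM in controls. Axl fell by 3.97 ± 0.61 on the log2 scale (adjusted p = 1.5e-04). Its ligand Gas6 stood at 15.96, 31.1 and 21.3 CPM at day 2, against 265 and 1376 CPM in controls. For Gas6 the log2 fold change was -5.17 ± 0.90 (adjusted p = 5.0e-04). The phosphatidylserine receptor Timd4 stood at 0.426, 0 and 1.93 CPM at day 2, against 68.1 and 107 CPM in controls. Timd4 fell by 7.04 ± 1.497 on the log2 scale (adjusted p = 0.003). Gas6 was much higher in control B than in control A, and both were above all day 2 libraries. Cd300lf, another receptor for phosphatidylserine, stood at 229, 235 and 214 CPM at day 2, against 44.6 and 15.2 CPM in controls. The rise of Cd300lf came to 2.92 ± 0.46 log2 units (adjusted p = 2.0e-04).

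Some genes of lipid, iron and secreted products fell, and the genes named here are fallers only. Of 20 iron and heme genes, calls were 6 higher, among them Hmox1 and Ftl1, and 4 lower. Of 21 genes of cholesterol efflux and liver X receptor targets, calls were 5 higher and 3 lower. The list of cytokine signal feedback, which holds Lifr, had 9 higher and 3 lower of 28. These counts are with all libraries in, and some were smaller when 1 library was left out. Cyp27a1, which makes 27-hydroxycholesterol, a ligand of the liver X receptors, stood at 7.01, 14.5 and 5.80 CPM at day 2, against 336 and 351 CPM in controls. For Cyp27a1 the log2 fold change was -5.22 ± 0.56 (adjusted p = 2.6e-06). The transporter Abca9 stood at 15.6, 27.6 and 17.3 CPM at day 2, against 368 and 128 CPM in controls. Abca9 fell by 3.62 ± 0.60 on the log2 scale (adjusted p = 3.4e-04). The ferroxidase Cp stood at 1.33, 7.37 and 3.26 CPM at day 2, against 70.5 and 91.9 CPM in controls. For Cp the log2 fold change was -4.34 ± 1.06 (adjusted p = 0.0081). Transferrin Trf stood at 43.8, 40.9 and 31.6 CPM at day 2, against 107 and 153 CPM in controls. Trf fell by 1.74 ± 0.33 on the log2 scale (adjusted p = 9.7e-04). Retnla, a secreted protein typical of interleukin-4 stimulated macrophages, stood at 42.9, 38.6 and 223 CPM at day 2, against 4731 and 8918 CPM in controls. For Retnla the log2 fold change was -6.08 ± 1.03 (adjusted p = 4.4e-04). Day 2 C lay well above the other day 2 libraries. Epor, the erythropoietin receptor, had 0 counts at day 2 and 13.7 and 30.5 CPM in controls (at least 395-fold lower, counting error only). Lifr, the receptor for leukaemia inhibitory factor, stood at 28.5, 33.3 and 23.3 CPM at day 2, against 235 and 237 CPM in controls. Lifr fell by 3.05 ± 0.58 on the log2 scale (adjusted p = 0.0012).

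H2-Ab1, H2-Aa and H2-DMb1, genes of the MHC class II pathway by which antigen is shown to helper T cells, were lower in every day 2 library than in both controls. H2-Ab1 stood at 1572, 669 and 2143 CPM at day 2, against 6183 and 8966 CPM in controls. For H2-Ab1 the log2 fold change was -2.37 ± 0.51 (adjusted p = 0.0031). H2-Aa stood at 771, 289.8 and 1264 CPM at day 2, against 3042 and 4560.0 CPM in controls. H2-Aa fell by 2.29 ± 0.49 on the log2 scale (adjusted p = 0.0029). The peptide loader H2-DMb1 stood at 142, 109 and 198 CPM at day 2, against 505 and 688 CPM in controls. For H2-DMb1 the log2 fold change was -1.998 ± 0.32 (adjusted p = 2.1e-04). For all 3 genes day 2 B was lowest and day 2 C highest, and C also had the highest sums of T cell and dendritic cell markers among the day 2 libraries. MHC genes share sequence, so that values of single members are uncertain. The class II list gave 3 higher (1 leaving out control A) and 9 lower of 16, and its risers were Ctss, Cd80 and Ifi30. Interferon-stimulated genes gave 14 lower (3 leaving out control A and 7 leaving out day 2 A) of 49, and their median log2 fold change of -0.91 was -0.66 with the length trend removed. The GTPase Irgm2 stood at 11.98, 16.6 and 15.7 CPM at day 2, against 90.8 and 55.4 CPM in controls. Irgm2 fell by 2.31 ± 0.42 on the log2 scale (adjusted p = 8.3e-04).

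**Figure D4:**
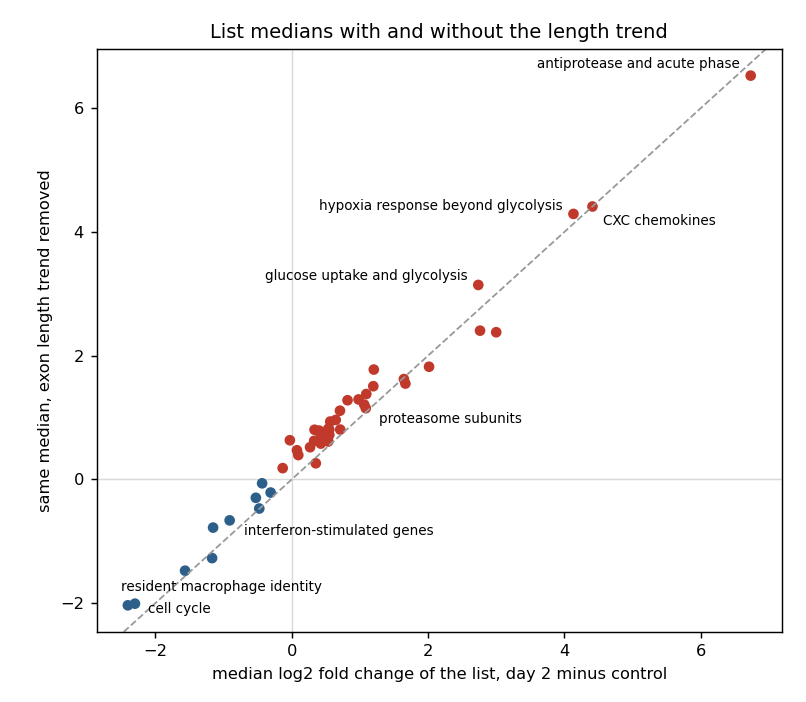
Median log2 fold change of each functional list, day 2 minus control (x axis), against the same median with the exon length trend removed (y axis), with the line of equality dashed. The hypoxia list (4.13 and 4.29) lies far above 0 and the resident macrophage list (-2.40 and -2.03) far below 0 on both axes, and the proteasome (1.06 and 1.21) and interferon-stimulated (-0.91 and -0.66) lists lie above the line, as the median over all genes does (-0.16 and 0.05).

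The spread within groups was wide for some genes that did not pass. The phosphatase Dusp1, an early-response gene that also answers to digestion, stood at 886, 834 and 492 CPM at day 2, against 61.7 and 739 CPM in controls, so that control A stood apart from control B and from day 2. The cytokine-like Metrnl stood at 172.6, 249 and 130.1 CPM at day 2, against 45.4 and 576 CPM in controls. Ndfip1, an adaptor of ubiquitin ligases, stood at 64.7, 68.4 and 31.2 CPM at day 2, against 25.5 and 289 CPM in controls. For Metrnl and Ndfip1, control A lay below and control B above all day 2 libraries. Within day 2, the osteoclast proton pump subunit Atp6v0d2 stood at 90.4, 11.4 and 119.6 CPM at day 2, against 21.8 and 12.05 CPM in controls, with day 2 B at the level of the controls. The alpha globin Hba-a1 stood at 283, 106 and 24.4 CPM at day 2, against 3.72 and 64.4 CPM in controls, in the order of the red cell sums. Groups overlapped for all 5 genes.

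The 20 largest rises also held genes outside those described so far. Slpi, an antiprotease of mucosa and neutrophils, stood at 2287, 507 and 971 CPM at day 2, against 0.588 and 1.08 CPM in controls (log2 fold change 10.49 ± 0.95, adjusted p = 3.5e-07). S100a8, a subunit of the calcium-binding calprotectin of neutrophils and monocytes, stood at 3157, 1460.5 and 2303 CPM at day 2, against 0.523 and 2.64 CPM in controls (log2 fold change 10.43 ± 1.17, adjusted p = 4.6e-06). Its partner S100a9 stood at 2897, 1253 and 1697 CPM at day 2, against 0.327 and 2.31 CPM in controls (log2 fold change 10.43 ± 1.18, adjusted p = 4.7e-06). The neutrophil marker sums given above, which hold S100a8 and S100a9, moved with them. The costimulatory receptor 4-1BB, encoded by Tnfrsf9, stood at 296, 157 and 240.3 CPM at day 2, against 0.261 and 0.330 CPM in controls (log2 fold change 9.55 ± 1.03, adjusted p = 2.6e-06). The adhesion gene Flrt3 had 112, 24.3 and 75.4 CPM at day 2, against 1 count over both controls (ratio 3237 with a counting interval of 581 to 127903). The noncoding RNA Mirt2 had 22.2, 17.2 and 19.7 CPM at day 2, against 1 count (ratio 951 with a counting interval of 170.3 to 37597). These intervals cover counting error only. Among the largest gains in CPM, Spp1, which encodes osteopontin, stood at 62237, 30019 and 57227 CPM at day 2, against 322 and 201 CPM in controls (log2 fold change 7.57 ± 0.89, adjusted p = 8.1e-06). The lysozyme gene Lyz2 stood at 60015, 56768 and 52392 CPM at day 2, against 23308 and 32002 CPM in controls (log2 fold change 1.03 ± 0.33, adjusted p = 0.037, and 0.31 leaving out control A, 0.061 leaving out control B, 0.11 leaving out day 2 A, 0.063 leaving out day 2 B and 0.078 leaving out day 2 C). Lgals3, which encodes galectin-3, stood at 9700.1, 5551 and 9947 CPM at day 2, against 799 and 1087 CPM in controls (log2 fold change 3.15 ± 0.45, adjusted p = 6.6e-05). The actin-binding thymosin gene Tmsb4x stood at 15849, 10602 and 12847 CPM at day 2, against 4223 and 5611 CPM in controls (log2 fold change 1.41 ± 0.45, adjusted p = 0.034, and 0.26 leaving out control A, 0.081 leaving out control B, 0.11 leaving out day 2 A and 0.077 leaving out day 2 C). The cytoskeletal actin Actb stood at 8746, 6796 and 8643 CPM at day 2, against 2044 and 2713 CPM in controls (log2 fold change 1.76 ± 0.33, adjusted p = 9.1e-04). Each day 2 library lay above both controls for these 11 genes. The rule for the 20 largest rises required this of its genes, and groups did not overlap for 54.1% of all genes tested.

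The 20 largest falls held genes of varied functions. The actin-capping Tmod1 had 0 counts at day 2 and 8.16 and 11.9 CPM in controls (at least 179.8-fold lower, counting error only). Slc18b1, a vesicular polyamine transporter, had 1 count over the day 2 libraries, against 13.8 and 7.70 CPM in controls (control to day 2 ratio 516 with a counting interval of 92.2 to 20433), and was not called leaving out any 1 of the 5 libraries. The kinase Dmpk had 2 counts at day 2, against 21.9 and 22.7 CPM in controls (control to day 2 ratio 604 with a counting interval of 167 to 4993). The complement gene C4b stood at 2.37, 2.55 and 8.09 CPM at day 2, against 1096 and 546 CPM in controls (log2 fold change -7.62 ± 1.04, adjusted p = 4.4e-05). C4a, its close copy, shares sequence with it and stood at 0.331, 0.247 and 1.45 CPM at day 2, against 117 and 66.98 CPM in controls (log2 fold change -7.30 ± 0.96, adjusted p = 2.9e-05), so that the level of either is uncertain. The secreted C1qtnf1 stood at 0.474, 0 and 0.725 CPM at day 2, against 70.5 and 56.8 CPM in controls (log2 fold change -7.50 ± 1.24, adjusted p = 4.4e-04). The lectin Cd209f stood at 0.142, 0.700 and 21.1 CPM at day 2, against 964 and 1483 CPM in controls (log2 fold change -7.47 ± 1.24, adjusted p = 3.4e-04, with a log2 value of -11.54 leaving out day 2 C). Its relative Cd209c stood at 0.189, 0 and 0.362 CPM at day 2, against 8.49 and 14.2 CPM in controls (log2 fold change -6.11 ± 1.42, adjusted p = 0.0056). The urea transporter Slc14a1 stood at 0.189, 0.0412 and 0.483 CPM at day 2, against 21.9 and 26.3 CPM in controls (log2 fold change -6.90 ± 1.56, adjusted p = 0.0048).

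The cardiac troponin Tnni3 stood at 0.0474, 0.123 and 0.242 CPM at day 2, against 12.5 and 8.27 CPM in controls (log2 fold change -6.34 ± 1.24, adjusted p = 0.0014). Plekhg5 stood at 0.379, 0.0823 and 1.21 CPM at day 2, against 86.5 and 60.9 CPM in controls (log2 fold change -7.28 ± 1.22, adjusted p = 3.8e-04). Prr5, a subunit of mTOR complex 2, stood at 0.284, 0 and 0.242 CPM at day 2, against 3.59 and 17.5 CPM in controls (log2 fold change -5.97 ± 1.66, adjusted p = 0.018, and 0.13 leaving out control B, 0.058 leaving out day 2 B and 0.051 leaving out day 2 C). The inactive rhomboid Rhbdf1 stood at 0.0947, 0.823 and 0.121 CPM at day 2, against 13.4 and 30.7 CPM in controls (log2 fold change -5.86 ± 1.40, adjusted p = 0.0069). Losses in CPM were largest for Cd74 and Retnla, and 5 others of the 10 largest losses follow. The selenium carrier Selenop stood at 1320.4, 2514 and 1699.6 CPM at day 2, against 4972 and 6041 CPM in controls (log2 fold change -1.58 ± 0.30, adjusted p = 9.7e-04). The class II gene H2-Eb1 stood at 549.8, 229.8 and 918 CPM at day 2, against 2323 and 3635 CPM in controls (log2 fold change -2.40 ± 0.46, adjusted p = 0.0013). The complement gene C1qc stood at 1529.6, 2451 and 1673 CPM at day 2, against 3373 and 5093 CPM in controls (log2 fold change -1.17 ± 0.37, adjusted p = 0.033, and 0.23 leaving out control B, 0.091 leaving out day 2 A and 0.079 leaving out day 2 C). The phospholipid transfer protein gene Pltp stood at 727, 1462 and 827 CPM at day 2, against 2246 and 3268 CPM in controls (log2 fold change -1.46 ± 0.39, adjusted p = 0.015, and 0.13 leaving out control B, 0.059 leaving out day 2 A and 0.051 leaving out day 2 C). The membrane protein gene Serinc3 stood at 863, 1034 and 1051 CPM at day 2, against 2639 and 2739 CPM in controls (log2 fold change -1.45 ± 0.24, adjusted p = 3.0e-04).

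Day 2 macrophages were set against the 6 macrophage libraries of days 14 and 28, a contrast that uses no control library. Of all genes tested, 287 were higher at day 2 (1.77%) and 184 lower (1.13%), so that 60.9% of calls were higher, and 73.8% with the exon length trend removed. The numbers higher and lower were 109 and 45 without day 2 A, 166 and 35 without day 2 B, and 137 and 81 without day 2 C. They were 163 and 87 without day 14 A, 164 and 97 without day 14 B, 569 and 416 without day 14 C, 198 and 118 without day 28 A, 172 and 103 without day 28 B, and 365 and 371 without day 28 C. The higher genes held 14 of 18 neutrophil markers and 9 of 19 antiprotease and acute-phase genes. The neutrophil marker Ly6g stood at 20.6, 9.30 and 9.91 CPM at day 2, against 0.418, 0 and 0.404 CPM at day 14 and 0, 0 and 0 CPM at day 28. Ly6g had a log2 difference of 8.44 ± 0.88 (adjusted p = 3.0e-05). With all day 28 libraries at 0, this value depends on the prior count. The iron-binding lipocalin Lcn2 stood at 170.5, 112 and 162 CPM at day 2, against 1.05, 0.233 and 2.11 CPM at day 14 and 0.568, 2.401 and 2.72 CPM at day 28. Lcn2 had a log2 difference of 6.66 ± 0.62 (adjusted p = 4.2e-06). The acute-phase protein Saa3 stood at 5724, 2464 and 720.4 CPM at day 2, against 34.5, 21.8 and 50.2 CPM at day 14 and 2.89, 6.57 and 33.8 CPM at day 28. Saa3 had a log2 difference of 7.03 ± 0.76 (adjusted p = 1.6e-05). Haptoglobin Hp stood at 1358, 695 and 939 CPM at day 2, against 355, 154 and 309 CPM at day 14 and 81.6, 170.4 and 172 CPM at day 28. Hp had a log2 difference of 2.34 ± 0.30 (adjusted p = 8.0e-05). Outside those lists, the chemokine Ccl6 stood at 15939.9, 24025 and 16901 CPM at day 2, against 4436, 4017 and 6011 CPM at day 14 and 4481, 2972 and 3969.5 CPM at day 28. Ccl6 had a log2 difference of 2.15 ± 0.24 (adjusted p = 3.0e-05). Mt2 stood at 289, 135 and 122 CPM at day 2, against 18.1, 12.9 and 49.9 CPM at day 14 and 13.96, 11.3 and 20.5 CPM at day 28. Mt2 had a log2 difference of 3.17 ± 0.53 (adjusted p = 0.0018). The kallikrein Klk9 stood at 40.01, 21.1 and 40.3 CPM at day 2, against 0, 0 and 0.179 CPM at day 14 and 0, 0 and 1.03 CPM at day 28. Klk9 had a log2 difference of 7.82 ± 1.12 (adjusted p = 7.1e-04).

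Itgax, Axl, Olfml3, Cd74, Slc9b2 and Cd276 were lower at day 2 than later. Genes of integrins and adhesion called higher than on the later days numbered 2 of 32 (1 leaving out day 2 A, 1 leaving out day 2 B, 1 leaving out day 2 C, 1 leaving out day 14 A, 1 leaving out day 14 B, 1 leaving out day 28 A and 1 leaving out day 28 B). Those called lower numbered 7 of 32 (4 leaving out day 2 A and 2 leaving out day 2 B). Receptors and bridges for apoptotic cells called higher numbered 1 of 20 (0 leaving out day 2 A, 0 leaving out day 2 B, 0 leaving out day 2 C and 0 leaving out day 28 B), and those called lower 4 of 20 (1 leaving out day 2 A, 1 leaving out day 2 B, 1 leaving out day 2 C, 2 leaving out day 14 B, 2 leaving out day 28 A and 2 leaving out day 28 B). The integrin Itgax stood at 9.33, 2.26 and 14.5 CPM at day 2, against 99.2, 62.7 and 180.3 CPM at day 14 and 1041, 518 and 78.6 CPM at day 28. Itgax had a log2 difference of -4.87 ± 0.73 (adjusted p = 6.6e-04). Axl stood at 8.57, 4.40 and 19.3 CPM at day 2, against 195, 164 and 89.0 CPM at day 14 and 484, 479 and 177.5 CPM at day 28. Axl had a log2 difference of -4.49 ± 0.57 (adjusted p = 9.4e-05). The secreted Olfml3 stood at 3.55, 3.58 and 4.95 CPM at day 2, against 23.3, 45.4 and 65.4 CPM at day 14 and 56.7, 125 and 70.6 CPM at day 28. Olfml3 had a log2 difference of -3.94 ± 0.48 (adjusted p = 5.4e-05). The invariant chain Cd74 stood at 2092, 1003 and 3538 CPM at day 2, against 12186, 12668 and 7922 CPM at day 14 and 9819, 9791 and 17363 CPM at day 28. Cd74 had a log2 difference of -2.39 ± 0.36 (adjusted p = 7.1e-04). The count of class II genes called lower was 8 of 16 (5 leaving out day 2 A). The sodium-proton exchanger Slc9b2 stood at 0.521, 0 and 0 CPM at day 2, against 9.33, 10.2 and 44.5 CPM at day 14 and 85.3, 27.9 and 12.97 CPM at day 28. Slc9b2 had a log2 difference of -7.20 ± 1.13 (adjusted p = 0.0014, with a log2 value of -12.45 leaving out day 2 A). The checkpoint ligand Cd276 stood at 1.85, 0.905 and 0.846 CPM at day 2, against 16.6, 15.5 and 20.4 CPM at day 14 and 15.2, 26.6 and 27.3 CPM at day 28. Cd276 had a log2 difference of -4.03 ± 0.48 (adjusted p = 4.1e-05). Other day 2 changes were not called against the later days. Il1b stood at 4819.6, 1741 and 2527 CPM at day 2, against 1159, 1468 and 961 CPM at day 14 and 657, 534 and 2508 CPM at day 28. Il1b did not pass, with a log2 difference of 1.32 ± 0.36 (adjusted p = 0.052, and 0.046 leaving out day 2 B and 4.7e-04 leaving out day 28 C). Slc2a1 stood at 721, 506 and 564 CPM at day 2, against 593, 376 and 371 CPM at day 14 and 446, 477 and 439.9 CPM at day 28. Slc2a1 did not pass, with a log2 difference of 0.41 ± 0.27 (adjusted p = 0.40). Cd209g, a lectin of resident cells whose family shares sequence, stood at 0.142, 0.494 and 4.35 CPM at day 2, against 7.32, 1.67 and 6.55 CPM at day 14 and 2.13, 2.05 and 2.06 CPM at day 28. Cd209g did not pass, with a log2 difference of -1.22 ± 0.72 (adjusted p = 0.35, and 0.026 leaving out day 2 C).

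**Figure D5:**
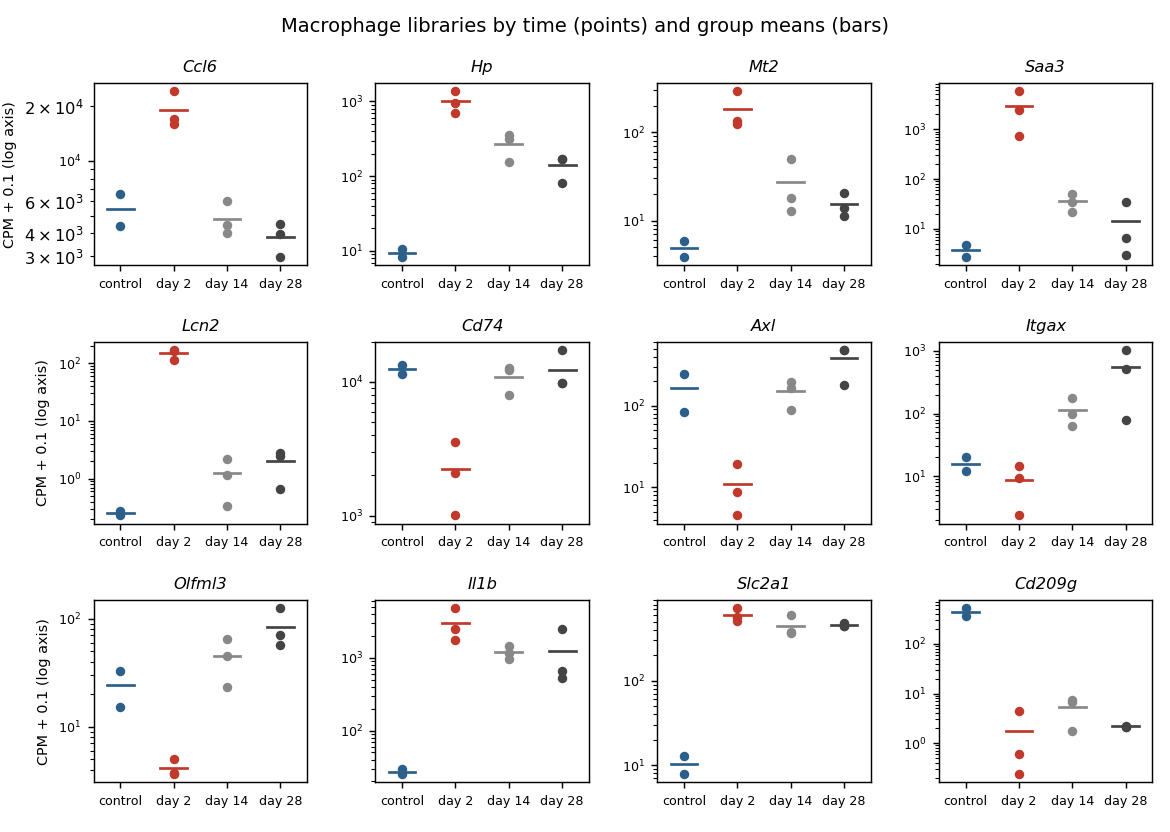
CPM + 0.1 on a log axis of 12 genes in macrophage libraries of controls (n = 2) and days 2, 14 and 28 (n = 3 each), with group means as bars. Ccl6, Hp, Mt2, Saa3 and Lcn2 are highest at day 2, Cd74, Axl, Itgax and Olfml3 are lower at day 2 than later, and Il1b, Slc2a1 and Cd209g were not called between day 2 and the later days.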

How the data were processed

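RNA of sorted cells was sequenced as SMART-Seq libraries, per the labels' protocols. Reads were processed with bcl2fastq, STAR 2.4.1d and featureCounts of Subread 1.5.1 on GRCm38, per the submitters' processing notes. The deposited values are raw counts per gene, which the authors left as whole numbers, in 47729 entries. The sources used here do not state the annotation release, the strand setting or how reads with more than 1 match were counted. GENCODE M21 gave exon lengths and named 47310 entries.

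Tests used edgeR 4.0.16 in R 4.3.3 (filterByExpr by group, TMM, robust quasi-likelihood fit of all 23 libraries in 8 groups, prior count 0.125) and limma 3.58.1. Adjusted p-values are Benjamini-Hochberg over 16260 genes, with a threshold of 0.05. Standard errors were taken from the fold change and the square root of its F statistic. In libraries of the comparison, 3 counts equal 0.0899 to 0.362 CPM. Folds against a group at 0 are bounds that set it at 3 counts over the group. Where a group held 1 to 3 counts, the ratio has a 95% counting interval. Genes were named by rule: the 20 largest rises and falls without overlap above 10 CPM, the 10 largest gains and losses in CPM, up to 6 called members of a list in each direction by adjusted p and 3 not called by level, members of marker lists, the 8 largest rises and falls against the later days, and 5 genes by spread within each group. S100a10, Slc16a3, Tnf and Vcan were chosen after their values were seen. The rule marks 508 genes, of which 167 are reported here with a fold change or ratio. The members and lists were chosen with earlier results of these data known, and no list was tested. The alternatives were DESeq2 1.42.0, limma voom, RLE factors, keeping genes of low count, only the groups compared, a replicate block, a prior count of 2, removal of the exon length trend, and leaving out each library. The code was tested on simulated data. Promoters were 250 bases before RefSeq starts on GRCm38.p6.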

Additional observations from a re-analysis of the deposited data

Results flagged for a closer look

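Some genes had a day 2 level that differed from the later implant days by a test of the difference itself, so that their change relative to controls was not the same at day 2 as at days 14 and 28. The log2 difference, day 2 minus the mean of days 14 and 28, was 8.44 for Ly6g, 7.82 for Klk9, 7.03 for Saa3, 6.66 for Lcn2, 3.17 for Mt2, 2.34 for Hp and 2.15 for Ccl6. It was -7.20 for Slc9b2, -4.87 for Itgax, -4.49 for Axl, -4.03 for Cd276, -3.94 for Olfml3 and -2.39 for Cd74. In edgeR's quasi-likelihood test the largest of their Benjamini-Hochberg adjusted p-values was 0.0018, for Mt2. Of the neutrophil markers, which include Ly6g and Lcn2, 14 of 18 were called higher at day 2 than on the later days. The part of neutrophils in the differences of Ly6g, Saa3, Lcn2 and Hp was not tested. Groups of 2 and 3 libraries were too small to look for single outlying libraries by a gap test.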

How the results depend on the processing

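The number of genes lower at day 2 than in controls moved from 1154 to 687 with the exon length trend removed, 2383 in limma voom and 1913 with only the groups compared, and the causes were not tested. Rises were 44.6% of calls without the low count filter, 49.0% in limma voom and 50.1% with only the groups compared, against 58.7%. Leaving out 1 library gave 496 to 1489 genes higher and 330 to 798 lower. Over all functional lists, 296 members were higher and 126 lower, and without 1 library 170 to 276 higher and 65 to 99 lower. Where 1 control was left, it was assumed to vary like the other groups. Against days 14 and 28, the numbers higher and lower were 691 and 614 in DESeq2, 1545 and 965 in limma voom and 641 and 847 without the low count filter, against 287 and 184. Leaving out 1 library gave 109 to 569 higher and 35 to 416 lower there. With the replicate letter as a replicate block, 1343 genes were higher and 872 lower against controls, and 204 higher and 119 lower against the later days. The letters are not described, and same-lettered libraries did not deviate together (r = -0.049 for A and -0.029 for B). Of 2363 recomputed log2 values of the genes named, 2296 kept direction and side of the threshold, 52 lost the threshold, 15 gained it and none turned its direction. Besides those lost by leaving out a library, given above, F13a1 lost the threshold with the length trend removed (log2 -1.16) and with the replicate block (-1.60), Lyz2 in the same settings (0.73 and 1.06), C1qc and Tmsb4x with the block (-1.08 and 1.35), Tmod1 in DESeq2 and Gsdmd without the low count filter (-0.92). Those gained were of Ly6c2 and Ccr2 in limma voom, without the low count filter and with only the groups compared, of Pcna with the length trend removed, and, against the later days, of Cd209g without that filter and of Il1b in DESeq2, in limma voom, with RLE factors and without that filter, beside the ones given above for single libraries. At 9303153 counts in the smallest library, levels below 0.362 CPM rest on 3 counts or fewer.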

Other observations

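Surface and lipid genes outside the groups above were called as well, and those named here are risers only. Of 15 scavenger receptors, calls were 4 higher and 3 lower, with a median log2 fold change of -0.03. The lower ones were Stab1, Cd163 and Scarf1. Of 26 genes of fatty acid uptake and oxidation, calls were 6 higher and 20 did not pass. These counts are with all libraries in, and some were smaller when 1 library was left out. The oxidized lipid receptor Olr1 stood at 41.5, 39.0 and 43.003 CPM at day 2, against 1.37 and 1.35 CPM in controls. For Olr1 the log2 fold change was 4.91 ± 0.43 (adjusted p = 2.9e-07). The scavenger receptor Msr1 stood at 1182, 896 and 1115 CPM at day 2, against 228 and 211 CPM in controls. Msr1 rose by 2.28 ± 0.27 on the log2 scale (adjusted p = 8.6e-06). Fabp5, a fatty acid binding protein, stood at 908, 353 and 754 CPM at day 2, against 17.4 and 28.2 CPM in controls. The rise of Fabp5 came to 4.88 ± 0.74 log2 units (adjusted p = 1.3e-04). The lipid droplet coat Plin2 stood at 2264, 2306 and 2724 CPM at day 2, against 633 and 767 CPM in controls. For Plin2 the log2 fold change was 1.80 ± 0.27 (adjusted p = 1.0e-04). The matrix proteoglycan Vcan stood at 92.4, 87.0 and 62.3 CPM at day 2, against 1.96 and 0.689 CPM in controls. Vcan rose by 5.99 ± 0.77 on the log2 scale (adjusted p = 2.2e-05). Each day 2 library lay above both controls for all 5 genes.

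Genes not usually named in macrophages were also called. Hdc, which makes histamine, stood at 142, 79.2 and 120.3 CPM at day 2, against 0.196 and 0.629 CPM in controls. The rise of Hdc came to 7.96 ± 0.81 log2 units (adjusted p = 1.4e-06). The mast cell marker list, which holds Hdc, summed to 142, 79.2 and 132 CPM at day 2, against 3.79 and 7.70 CPM in controls, and Hdc made up most of the day 2 sums. The kallikrein Klk8 had 63.1, 35.2 and 52.4 CPM at day 2, against 3 counts over both controls (ratio 792 with a counting interval of 271 to 3845). The skin protease Asprv1 had 48.1, 31.4 and 51.7 CPM at day 2, against 3 counts (ratio 667 with a counting interval of 228 to 3235). These intervals cover counting error only. Keratinocyte markers summed to 4.40, 4.32 and 3.02 CPM at day 2, against 2.42 and 4.59 CPM in controls. The neutrophil marker sums given above were higher at day 2, as Hdc, Klk8 and Asprv1 were. The part of neutrophils in the rises of these genes was not tested. The aminopeptidase Enpep stood at 0.0947, 0 and 0.483 CPM at day 2, against 90.9 and 93.4 CPM in controls. For Enpep the log2 fold change was -9.41 ± 1.44 (adjusted p = 1.5e-04). Siglech, a marker of plasmacytoid dendritic cells and microglia, had 1 count over the day 2 libraries, against 9.21 and 18.5 CPM in controls (control to day 2 ratio 837 with a counting interval of 149.8 to 33112).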
